A study of Danio rerio with 18 samples.

Results

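The chaperone and co-chaperone genes of zebrafish larvae were followed at the mRNA level in larvae lacking Akr1a1a, an aldo-keto reductase that converts reactive aldehydes, and in larvae exposed to acrolein (ACR), one such aldehyde. Genes were taken by symbol: those starting with hsp, dnaj, hsf, bag or cct followed by a digit, tcp1, ahsa or stip1. The prefixes matched 116 of 32520 gene IDs in the deposited tables, and 112 were kept after 4 inducible hsp70 genes had been set aside. Of the 112 genes, 108 passed the filter on low counts and were tested, and hsf5, HSF2BP, hspa12a.1 and hspa12a.2 did not. The prefixes also matched 5 genes that do not encode chaperones, namely HSPG2 (perlecan), TCP11L1, TCP11L2, HSF2BP and HSPBAP1, and these were kept as a class of their own.

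Chaperones bind unfolded or partly folded proteins and help them reach or regain their native form. HSP70 does so in cycles of ATP hydrolysis that are started by J-domain proteins (the DNAJ genes) and reset by nucleotide exchange factors such as HSP110 and the BAG proteins, HSP90 takes over clients that STIP1 hands on from HSP70, and the ring-shaped chaperonin TRiC encloses newly made actin, tubulin and other proteins. Small heat shock proteins hold unfolding proteins without ATP, separate chaperone sets serve the endoplasmic reticulum (ER) and the mitochondria, and heat shock factors, above all HSF1, switch on many of the cytosolic genes when proteins are damaged.

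The groups were akr1a1a-/- larvae, akr1a1a+/+ larvae treated with ACR from 24 hpf (hours post fertilization), and untreated akr1a1a+/+ larvae, each with 6 samples collected at 120 hpf. All were of the Tg(fli1:EGFP) line, in which endothelial cells carry GFP, the mutant was a single CRISPR/Cas9-made line, and each sample was a pool of whole larvae from a clutch. The labels put all akr1a1a-/- libraries on lane 3, all untreated akr1a1a+/+ libraries on lane 2, and ACR-treated libraries 1 to 3 on lane 2 and 4 to 6 on lane 3. An effect of the genotype and one of the lane cannot be told apart between akr1a1a-/- and untreated larvae. Nothing in the labels says that same-numbered samples share a clutch, but ACR-treated and untreated samples of the same number deviated together. The p-values below measure the spread between these samples.

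Total estimated counts lay between 20247724 and 20463404 in akr1a1a-/- samples, between 20001894 and 20362335 in ACR-treated samples and between 19878464 and 20174607 in untreated akr1a1a+/+ samples. The targeted gene akr1a1a had 0.442 ± 0.152 CPM (counts per fixed library total, scaled by TMM) in akr1a1a-/- larvae, 3.35 ± 0.33 CPM in ACR-treated larvae and 3.02 ± 0.40 CPM in untreated akr1a1a+/+ larvae (SD, n = 6 each). Marker genes of 8 cell types were summed, and none of the markers found was at 0 in all samples. The summed levels overlapped between akr1a1a-/- and untreated akr1a1a+/+ samples for all 8 types. The erythrocyte sum was 369 to 677 CPM in akr1a1a-/- and 122 to 431 CPM in untreated samples, and the epidermis sum 13955 to 20474 CPM in ACR-treated and 18391 to 21880 CPM in untreated samples. In such bulk samples fewer cells of a type and less RNA per cell cannot be told apart.

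The abundance of the chaperone mRNAs was dominated by a few genes. Per transcript length, in the deposited TPM, the constitutive cytosolic HSP70 gene HSPA8 (ENSDARG00000068992) averaged 2270 TPM over all samples, and HSP90AB1, the constitutive cytosolic HSP90, 1325 TPM. Next came 2 entries for the TRiC subunit 2, cct2 (ENSDARG00000087206) at 512 TPM and CCT2 (ENSDARG00000104674) at 236 TPM. The summed level of all 112 genes was 7018 to 8194 TPM in akr1a1a-/- samples, 7306 to 7802 TPM in ACR-treated samples and 6660 to 7519 TPM in untreated akr1a1a+/+ samples, and the 3 ranges overlapped. The heat shock factors were the scarcest class, with summed levels of 45.03 to 53.6 TPM in akr1a1a-/- samples, 49.6 to 59.2 TPM in ACR-treated samples and 50.6 to 57.2 TPM in untreated akr1a1a+/+ samples.

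In akr1a1a-/- larvae, 14 of the 108 tested genes differed from akr1a1a+/+ larvae, 12 of them higher and 2 lower (edgeR's quasi-likelihood test, Benjamini-Hochberg adjusted p under 0.05 over 23223 genes). That share of 13.0% lay below the 16.2% of all genes tested that were called in the same comparison, of which 8.19% were higher and 7.96% lower. The genes called higher were 5 TRiC entries, the HSP70-family genes hspa1b and HSPA14, the J-domain genes dnaja, dnaja3b and dnajc5ga, the HSP70-HSP90 adaptor STIP1 and the prefix match TCP11L1. The genes called lower were the small heat shock protein gene hspb15 and one of the DNAJC5 genes (ENSDARG00000004836). Changes were small: the median log2 fold change of the 108 genes was 0.06, against -0.000739 for all genes, and the values ran between -0.66 and 0.62. Of the 108 values 74 lay above 0, against 49.8% of all genes. The split depended on the scale. With limma on log2(TPM + 1), 6 chaperone genes were higher and 4 lower with 15.9% of all genes called. On that scale 56 of 108 values lay above 0 with a median of 0.005, while the median of all genes moved to -0.05.

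**Figure D1:**
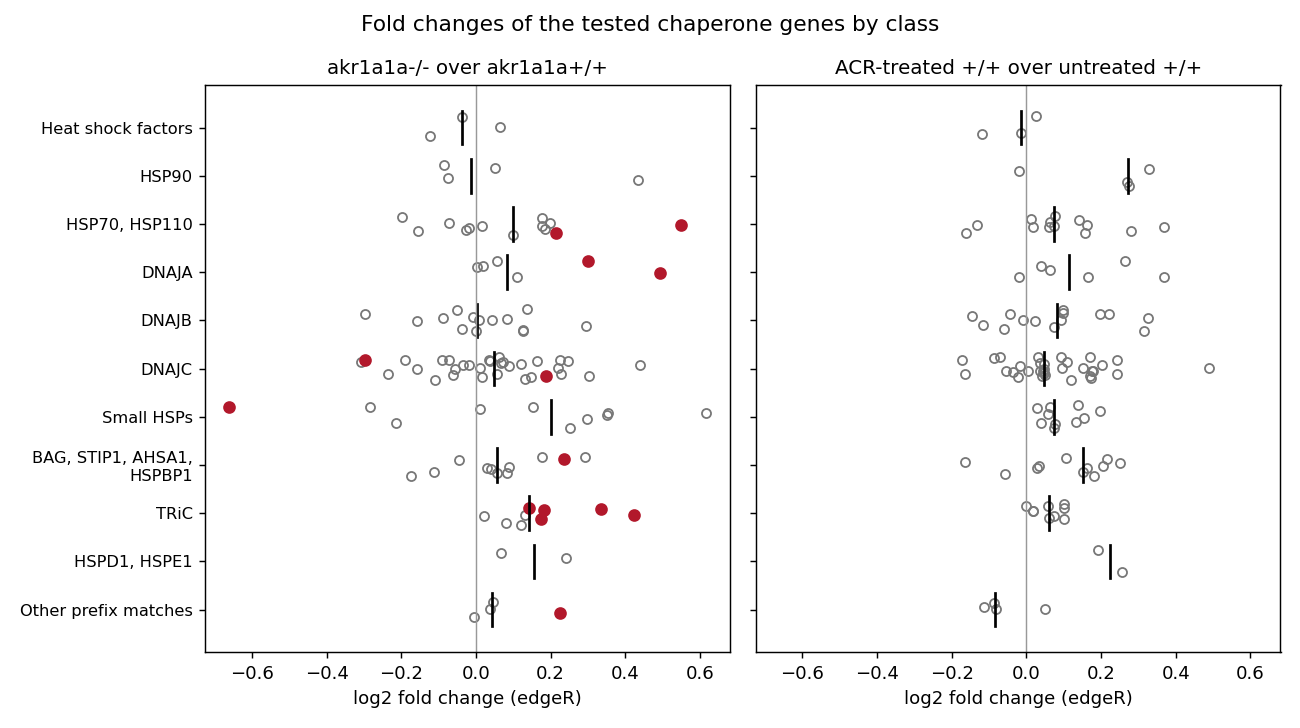
Log2 fold changes (x axis) of the 108 tested genes by class (y axis), in akr1a1a-/- over akr1a1a+/+ larvae on the left and in ACR-treated over untreated akr1a1a+/+ larvae on the right. Filled points passed an adjusted p of 0.05 in edgeR (14 genes on the left, 0 on the right), open points did not, and bars mark the median of a class. The TRiC values on the left all lie above 0, as do 10 of 10 small heat shock protein values on the right.

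The TRiC chaperonin was the class with the most calls in akr1a1a-/- larvae, where 5 of 9 entries rose (55.6%). Beside this, 16.2% of all genes were called and 8.19% were called higher. Of the TRiC log2 fold changes 9 of 9 lay above 0 (8 of 9 on the TPM scale), against 49.8% of all genes. The 5 calls hold both the CCT2 and the cct2 entry, whose relation was not tested. CCT2 (ENSDARG00000104674) had 163 CPM as the lowest, 169.6 CPM as the median and 176 CPM as the highest value in akr1a1a-/- samples, against 108, 133 and 137 CPM in akr1a1a+/+ samples. Every akr1a1a-/- sample lay above every akr1a1a+/+ sample (log2 fold change 0.42 ± 0.07 SE, adjusted p = 0.0003). The cct2 entry (ENSDARG00000087206) behaved likewise, with 55.1, 60.3 and 64.5 CPM in akr1a1a-/- samples and 41.7, 48.8 and 52.5 CPM in akr1a1a+/+ samples (log2 fold change 0.34 ± 0.07, adjusted p = 0.00347). Groups that do not overlap in the higher direction were seen for 5 of the 108 genes and for 3.81% of all genes tested.

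Whether the 2 entries are separate genes was not tested. They carry the same symbol, and the counts per unit of TPM were 5.86 times larger for CCT2, which makes the cct2 entry the shorter one. The deposited estimates of both were whole numbers in 100% of the samples, whereas a read shared between entries is usually split into fractions. Since their relation was not tested, they are given side by side as one uncertain subunit rather than as a pair of independent results. Counts of entries and of called genes still hold both of them.

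The other TRiC subunits differed less. CCT8 had 227, 254 and 266 CPM as the lowest, median and highest value in akr1a1a-/- samples, against 202, 224 and 237 CPM in akr1a1a+/+ samples (log2 fold change 0.17 ± 0.05, adjusted p = 0.0225). TCP1, subunit 1, had 174, 199 and 209 CPM in akr1a1a-/- samples and 154, 173 and 182 CPM in akr1a1a+/+ samples (0.18 ± 0.05, adjusted p = 0.0263). For CCT5 the log2 fold change was 0.14 ± 0.05 (adjusted p = 0.0463). All these groups overlapped, and CCT3, CCT4, CCT6B and CCT7 did not pass the test, with log2 fold changes between 0.02 and 0.13.

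The summed TPM of the 9 entries was 1781 to 1905 in akr1a1a-/- samples, 1615 to 1888 in ACR-treated samples and 1477 to 1722 in untreated akr1a1a+/+ samples, with no overlap between akr1a1a-/- and untreated akr1a1a+/+ samples. In TPM most of this difference came from the CCT2 and cct2 entries, and TPM, scaled to length, gives the shorter cct2 entry more weight. In CPM the mean of cct2 was 60.3 in akr1a1a-/- and 47.8 in untreated samples. That of CCT2 was 169 and 126 CPM, and that of CCT8 249 and 221 CPM. The summed TPM of the 9 entries averaged 1848 in akr1a1a-/- and 1618 in untreated samples, with cct2 at 582 and 456 TPM and CCT2 at 271 and 209 TPM. Whether the sum of the other entries separated the groups was not tested. The count of 5 called entries rested on single samples. Only the CCT2 and cct2 entries remained called without akr1a1a-/- replicate 4, 5 or 6 or without akr1a1a+/+ replicate 1 or 2, and likewise in limma's fit of TPM. With lane as a covariate, which can be estimated only from the ACR-treated samples, 0 of 9 entries were called by edgeR although 9 of 9 values stayed above 0, and the log2 fold change of CCT2 was 0.29 (adjusted p = 0.125). CCT2 averaged 129 CPM in ACR-treated samples 1 to 3, of lane 2, and 141 CPM in samples 4 to 6, of lane 3. In untreated samples, all of lane 2, it averaged 118 and 135 CPM along the same numbers. Lane and sample number cannot be told apart in this fit.

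**Figure D2:**
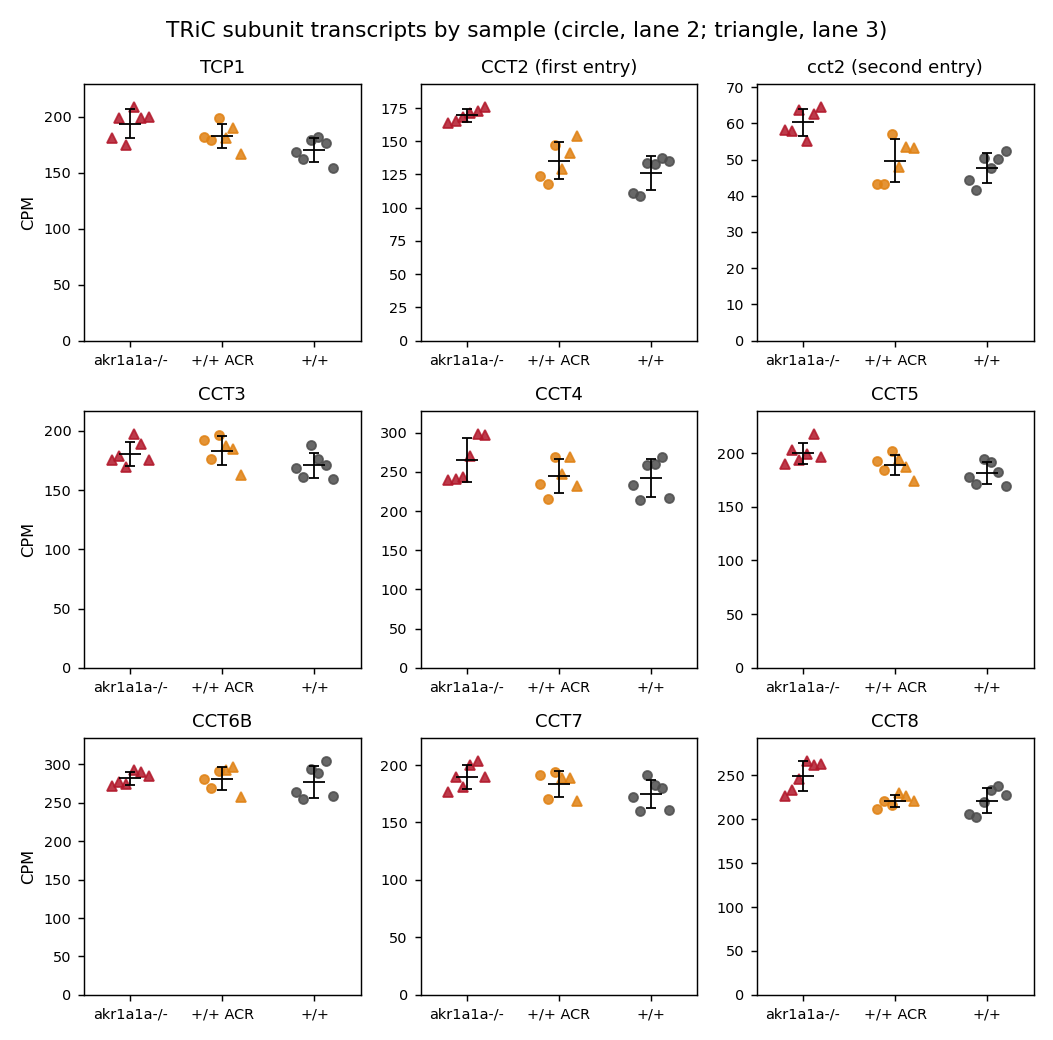
CPM (y axis, from 0) of the 9 TRiC entries in each sample of akr1a1a-/-, ACR-treated akr1a1a+/+ (+/+ ACR) and untreated akr1a1a+/+ larvae (x axis), with 6 samples a group. Circles are libraries of lane 2 and triangles of lane 3, and bars give the mean and SD. The akr1a1a-/- samples of CCT2, at 163 to 176 CPM, lie above the other groups, while the groups of CCT6B overlap.

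Of the HSP70 and HSP110 genes, 2 of 13 tested rose in akr1a1a-/- larvae, or 15.4%, beside 16.2% of all genes called and 8.19% called higher. The gene hspa1b, a scarce member of the HSP70 family, had 2.87, 3.35 and 4.03 CPM as the lowest, median and highest value in akr1a1a-/- samples, against 1.64, 2.36 and 2.80 CPM in akr1a1a+/+ samples. The groups did not overlap, and the log2 fold change of 0.55 ± 0.14 was the largest rise called among all 14 genes (adjusted p = 0.00869). HSPA14, an HSP70 homologue that works at the ribosome, had 23.5, 24.9 and 28.3 CPM in akr1a1a-/- samples and 18.5, 22.5 and 24.4 CPM in akr1a1a+/+ samples (0.22 ± 0.06, adjusted p = 0.0243). HSPA8, the most abundant chaperone mRNA, had 3556, 4184 and 4917 CPM in akr1a1a-/- samples and 3348, 3838 and 4004 CPM in akr1a1a+/+ samples. Its difference missed the threshold (0.18 ± 0.07, adjusted p = 0.0946). HSPA8 was called higher with the replicate block in edgeR's fit of all samples (adjusted p = 0.0152), but not by DESeq2's Wald test or limma on TPM.

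None of the 4 HSP90 genes was called in akr1a1a-/- larvae by edgeR's test without a block. HSP90AB1 differed by a log2 fold change of 0.05, with a 95% interval of -0.05 to 0.15. The inducible, muscle-expressed hsp90aa1.1 had 67.7, 104 and 168 CPM as the lowest, median and highest value in akr1a1a-/- samples against 64.5, 84.2 and 98.6 CPM in akr1a1a+/+ samples, with replicate 4 at the top (0.44 ± 0.15, adjusted p = 0.0594). It was called higher with the replicate block in edgeR's fit of all samples (adjusted p = 0.0195) and by DESeq2's Wald test (adjusted p = 0.0323). Neither limma on TPM nor the fit with lane as a covariate called it. The adaptor STIP1, which joins HSP70 to HSP90, did pass: it had 78.4, 87.4 and 95.9 CPM in akr1a1a-/- samples and 65.7, 74.4 and 83.2 CPM in akr1a1a+/+ samples (0.23 ± 0.05, adjusted p = 0.0059). None of the other 10 genes of the co-chaperone class was called, among them BAG3, the stress-linked exchange factor (0.08 ± 0.08), and the HSP90 activators AHSA1 (ENSDARG00000100317, 0.06 ± 0.07, and ENSDARG00000028664, -0.17 ± 0.18).

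The J-domain genes gave 4 calls in akr1a1a-/- larvae among 52 tested, a smaller share than the 16.2% of all genes called. In the DNAJA class 2 of 6 rose: dnaja3b, a mitochondrial J-domain gene, with 8.59, 9.63 and 10.7 CPM as the lowest, median and highest value in akr1a1a-/- and 6.96, 7.70 and 9.09 CPM in akr1a1a+/+ samples (0.30 ± 0.08, adjusted p = 0.0138), and dnaja (ENSDARG00000051762), with 9.54, 13.9 and 18.05 CPM in akr1a1a-/- against 6.42, 10.5 and 12.3 CPM in akr1a1a+/+ samples (0.49 ± 0.15, adjusted p = 0.0277). None of the 14 DNAJB genes passed. Of 32 DNAJC genes, dnajc5ga rose and DNAJC5 fell, and both belong to the family of cysteine string proteins, which assist HSP70 on secretory and synaptic vesicles.

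The cysteine string protein genes held calls in both directions. DNAJC5 (ENSDARG00000004836) had 78.9, 94.3 and 115 CPM as the lowest, median and highest value in akr1a1a-/- samples, against 104, 118 and 119 CPM in akr1a1a+/+ samples, so that a single akr1a1a-/- sample reached into the akr1a1a+/+ range (log2 fold change -0.30 ± 0.07, adjusted p = 0.00831). The second DNAJC5 gene (ENSDARG00000042948) stood at 0.16 ± 0.09 and did not pass. For dnajc5ga the values were 29.6, 31.3 and 33.6 CPM in akr1a1a-/- and 26.5, 27.4 and 29.5 CPM in akr1a1a+/+ samples, with no overlap (0.19 ± 0.05, adjusted p = 0.013). Its sister gene dnajc5gb had a log2 fold change of -0.24 ± 0.08 and just missed the threshold (adjusted p = 0.056). It was called lower with the replicate block in edgeR's fit of all samples (adjusted p = 0.0112). DESeq2's Wald test (adjusted p = 0.0421) and limma on log2(TPM + 1) (adjusted p = 0.0339) also called it lower. With lane as a covariate, or with other filters or scaling, it was not called.

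The largest log2 fold change and the smallest adjusted p among all 108 genes belonged to hspb15, a small heat shock protein gene of fish. It had 4.69, 4.84 and 5.64 CPM as the lowest, median and highest value in akr1a1a-/- samples, against 7.21, 7.83 and 8.44 CPM in akr1a1a+/+ samples. No akr1a1a-/- sample reached the akr1a1a+/+ range, which 3.64% of all genes showed in the lower direction (log2 fold change -0.66 ± 0.08, adjusted p = 6.66e-06). It fell in every fit that left out 1 sample and under every alternative of normalization, filter, block and lane. Against the ACR-treated samples of the same lane 3 the log2 fold change was -0.78 (adjusted p = 2.26e-05).

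The other 9 small heat shock protein genes did not pass. The closest were HSPB2 at 0.35 ± 0.12 (adjusted p = 0.0533) and HSPB1, which protects actin filaments, at 0.30 ± 0.11 (adjusted p = 0.0594), with 27.1, 33.2 and 40.4 CPM in akr1a1a-/- and 23.7, 26.1 and 33.4 CPM in akr1a1a+/+ samples. Since several of them are muscle genes, the summed muscle markers belong beside them. Fast muscle had 66267 to 78898 CPM in akr1a1a-/- samples and 62988 to 73608 CPM in akr1a1a+/+ samples, with medians of 69722 and 65928 CPM. The slow muscle medians were 1591 and 1629 CPM and the cardiac medians 199.8 and 213.2 CPM, both the other way. All these ranges overlapped, and their part in these values was not tested. Neither HSPD1 nor HSPE1, the mitochondrial chaperonin and its lid, was called (0.07 ± 0.10 and 0.24 ± 0.09, the second with an adjusted p of 0.0612). Over 11 genes of mitochondrial chaperones and their partners, 11 values lay above 0, with a median of 0.09 and dnaja3b as the only call, but on the TPM scale 7 lay above 0, with 0 calls. Of the heat shock factors, hsf1 had a log2 fold change of 0.06, HSF2 of -0.12 and HSF4 of -0.04, and none passed.

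**Figure D3:**
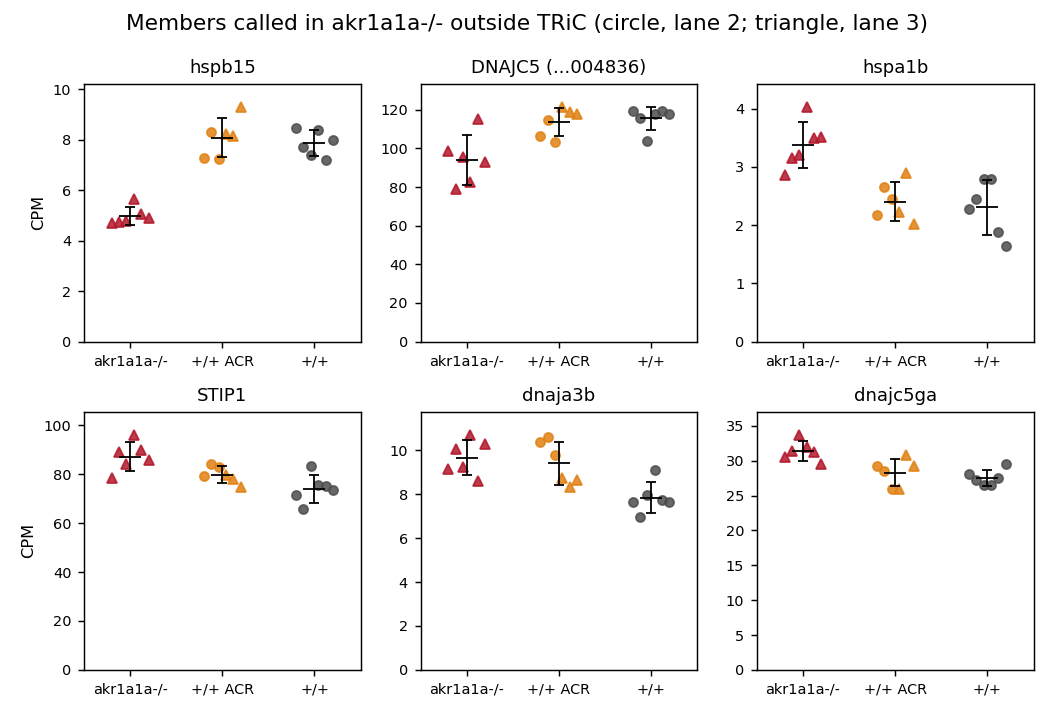
CPM (y axis, from 0) in each of 6 samples of akr1a1a-/-, ACR-treated akr1a1a+/+ (+/+ ACR) and untreated akr1a1a+/+ larvae (x axis) for the 6 called genes outside TRiC that stayed called in all 12 fits leaving out 1 sample and are chaperones. Circles are lane 2, triangles lane 3, and bars show mean and SD. The akr1a1a-/- samples of hspb15, at 4.69 to 5.64 CPM, lie below both other groups, and those of hspa1b, at 2.87 to 4.03 CPM, lie above all untreated akr1a1a+/+ samples.

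How firm the 14 calls were differed from gene to gene. CCT2, cct2, hspa1b, STIP1, dnaja3b, dnajc5ga, TCP11L1, hspb15 and DNAJC5 passed in all 12 fits that left out a sample, while CCT8 passed in 7, TCP1 in 6, CCT5 in 3, dnaja in 7 and HSPA14 in 8. With lane as a covariate 10 of 108 genes were called, with 6.45% of all genes, and 4 of the 14 remained: hspb15, DNAJC5, STIP1 and dnaja3b. The other genes called in that fit, all higher, were DNAJB11 (0.83), bag1 (0.45), BAG3 (0.41), HSPE1 (0.52), HSPB8 (0.62) and hspb9 (1.41). The lane term rests on ACR-treated samples 1 to 3 against 4 to 6. Untreated samples, all of lane 2, differed along these numbers too. Untreated hspb9 averaged 11.2 CPM in samples 1 to 3 and 6.27 CPM in samples 4 to 6, and HSPE1 38.1 and 34.8 CPM. Lane and sample number cannot be told apart in that fit. With the replicate block in the fit of all samples, HSPE1, HSPB8 and hspb9 were among the genes called higher as well, and HSPE1 also by DESeq2's Wald test. The rise of TCP11L1, which is not a chaperone, was 0.23 ± 0.06 (adjusted p = 0.0103).

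ACR treatment left no chaperone gene past the threshold: 0 of 108 were called by edgeR's quasi-likelihood test, where 0.0258% of all genes tested, 6 in number, were called higher. At an unadjusted p under 0.05 there were 20 of 108, or 18.5%, beside 5.42% of all genes. This count moved with single libraries. It was 32 without ACR-treated replicate 6, 13 without ACR-treated replicate 2 or untreated replicate 6, and 14 without ACR-treated replicate 1. With the lane 2 treated samples alone it was 31, and with the lane 3 treated samples alone 7. The share of all genes at this threshold was not computed for these fits. Whether these shifts were particular to the chaperone genes was therefore not tested. DESeq2's Wald test and limma on TPM also called 0 of the chaperone genes. The values leaned to one side all the same. Of 108 log2 fold changes 83 lay above 0, or 76.9%, against 50.4% of all genes tested, with a median of 0.07. In pairs 1 to 6 of ACR-treated and untreated samples of the same number, 78, 79, 66, 68, 76 and 61 of 108 genes were higher after ACR. Among all genes tested 50.1, 50.3, 48.9, 50.8, 50.7 and 51.1% were higher in these pairs. The median log2 ratio of the 108 genes was 0.15 in pair 1 and 0.02 in pair 6.

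Read by these pairs, 20 of 108 genes (18.5%) were higher in 6 of 6 ACR-treated samples than in the untreated sample of the same number, and DNAJC28 alone was lower in 6 of 6. Among all genes tested the shares were 4.34% and 3.29%. The 20 were HSP90AA1 and hsp90aa1.1, HSPA4 (ENSDARG00000004754), HSPA9 and HSPA14, dnaja, dnaja1 and DNAJA3, DNAJC1, dnajc3b, DNAJC10, dnajc5gb and DNAJC5B, HSPB1, HSPBP1, CCT3, CCT5 and CCT7, and HSPD1 and HSPE1. They were picked out by their pairs and named after their values had been seen.

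Since the numbers pair ACR-treated with untreated samples, the replicate number was also fitted as a block. In the fit of all 18 samples 0 of 108 genes passed, with 0.138% of all genes called. In the fit of only the ACR-treated and untreated akr1a1a+/+ samples 4 of 108 were higher and 0 lower, or 3.70%, with 0.599% of 22866 genes called in either direction and 0.433% higher. These 4 were HSP90AA1, HSPA4 (ENSDARG00000004754), dnajc3b and HSPD1.

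HSP90AA1, a cytosolic HSP90 gene (ENSDARG00000024746), had 107, 142 and 154 CPM as the lowest, median and highest value in ACR-treated samples, against 71.2, 120 and 128 CPM in untreated samples. The groups overlapped, but each pair showed the same direction, with log2 ratios of 0.11 to 0.67 (blocked log2 fold change 0.35 ± 0.06, adjusted p = 0.0143 in the fit of both groups alone and 0.0972 in the fit of all samples). Samples 1 and 2 held the lowest values of this gene in all 3 groups, at 62.5 and 78.3 CPM in akr1a1a-/-, 107 and 114 CPM in ACR-treated and 81.0 and 71.2 CPM in untreated akr1a1a+/+ samples.

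HSPA4 (ENSDARG00000004754), an HSP110-type exchange factor for HSP70, had 45.9, 70.6 and 76.4 CPM as the lowest, median and highest value in ACR-treated samples and 40.5, 51.4 and 63.9 CPM in untreated samples (blocked 0.37 ± 0.07, adjusted p = 0.0226). HSPD1, the mitochondrial HSP60, had 97.3, 122 and 143 CPM in ACR-treated and 84.6, 109 and 118 CPM in untreated samples (blocked 0.26 ± 0.05, adjusted p = 0.0288). For dnajc3b, an ER co-chaperone gene, the values were 24.4, 29.2 and 34.3 CPM in ACR-treated and 20.4, 25.6 and 27.9 CPM in untreated samples (blocked 0.24 ± 0.04, adjusted p = 0.0226). These blocked values come from the fit of both groups alone. In edgeR's blocked fit of all samples the adjusted p was 0.327 for HSPA4, 0.47 for HSPD1 and 0.289 for dnajc3b. All 3 genes were higher in 6 of 6 pairs, with overlapping groups. In pairs 1 to 3, with treated libraries of lane 2, the log2 ratios of these 3 genes and HSP90AA1 lay between 0.26 and 0.73, and in pairs 4 to 6, with treated libraries of lane 3, between 0.06 and 0.41. With 3 treated samples of a lane set against all 6 untreated samples none of the 4 genes passed, and such fits leave out the pairing.

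**Figure D4:**
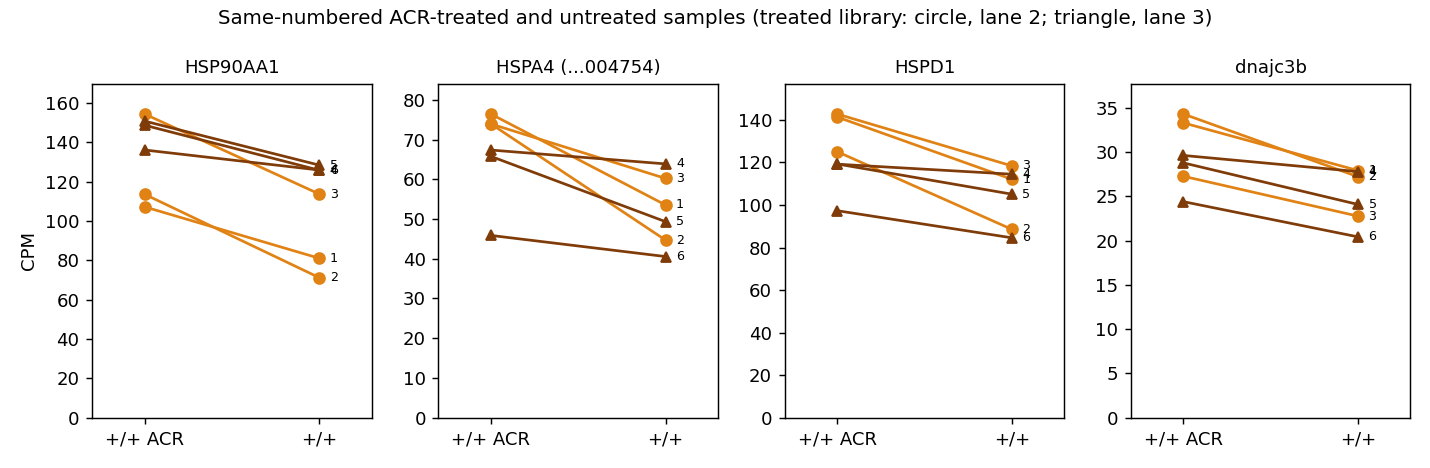
CPM (y axis, from 0) of HSP90AA1, HSPA4 (ENSDARG00000004754), HSPD1 and dnajc3b in ACR-treated akr1a1a+/+ larvae (left of each panel) and untreated akr1a1a+/+ larvae (right), with a line joining samples of the same number. Circles mark pairs whose treated library was of lane 2 and triangles those of lane 3, whereas all untreated libraries were of lane 2. All 6 lines of each gene fall towards the untreated sample, while the 2 groups overlap in every panel.

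The lumen of the ER holds a chaperone set of its own, in which HSPA5 (BiP) and HSP90B1 (GRP94) work with J-domain partners. After ACR treatment 10 of 10 of these genes had a log2 fold change above 0, against 50.4% of all genes tested. Their median was 0.23, and 0 passed the test. The list was written with earlier results of these data known. DNAJC1, an ER membrane J-domain gene, was the one chaperone gene whose groups did not overlap (0.194% of all genes in the higher direction): it had 33.3, 34.5 and 36.2 CPM in ACR-treated samples, against 30.4, 31.1 and 32.6 CPM in untreated samples (0.15 ± 0.04, adjusted p = 0.743). HSPA5 had 157, 218 and 329 CPM in ACR-treated and 161, 191 and 247 CPM in untreated samples (0.28 ± 0.14, adjusted p = 0.91).

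The ER values differed from pair to pair. In pairs 1 to 3, whose treated libraries were of lane 2 as the untreated ones were, 9, 9 and 10 of 10 genes were higher after ACR, with median log2 ratios of 0.37, 0.30 and 0.15. In pairs 4 to 6, with treated libraries of lane 3, 7, 10 and 5 of 10 were higher, with medians of 0.06, 0.21 and -0.01, so that the pairs of both lanes overlapped. In the untreated samples, all of lane 2, HSPA5 had a mean of 209.9 CPM in samples 1 to 3 and 176 CPM in samples 4 to 6. The single values overlapped, at 247, 192 and 191 CPM in samples 1 to 3 and 204, 162 and 161 CPM in samples 4 to 6. The lane of the treated library and the clutch cannot be told apart here, with 3 pairs in each lane.

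**Figure D5:**
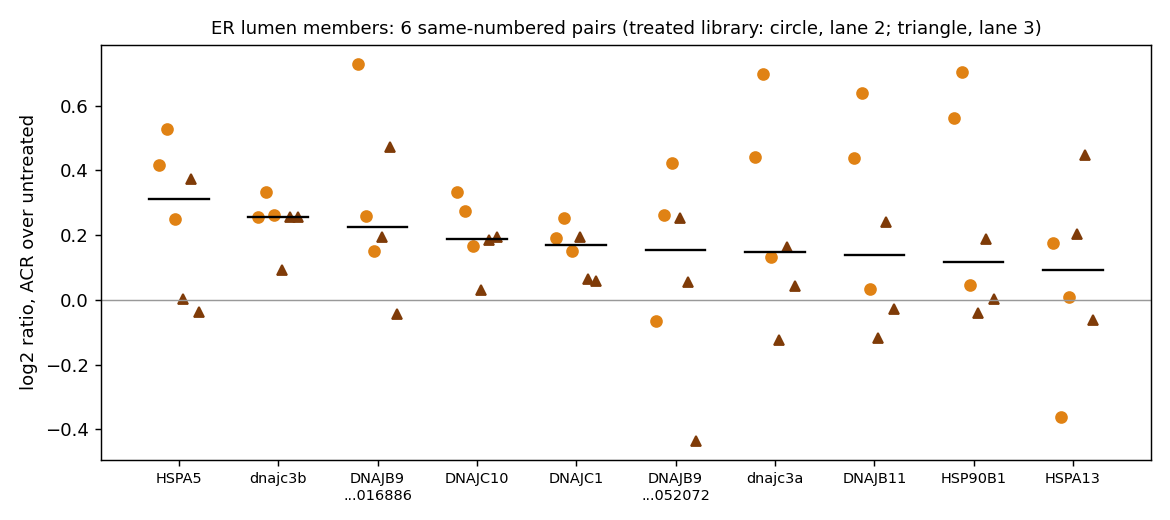
Log2 ratio of CPM in ACR-treated over untreated akr1a1a+/+ larvae (y axis) for the 10 ER lumen genes (x axis), with a point for each of the 6 same-numbered pairs and a bar at their median. Circles are pairs with a treated library of lane 2 and triangles those of lane 3. The medians of all 10 genes lie above 0, and the pairs of lane 3 reach below 0 for 7 of them.

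Outside the ER the class medians after ACR were 0.06 for TRiC, with 8 of 9 values above 0, and 0.08 for the small heat shock proteins, with 10 of 10 above 0 (6 of 10 with the lane 3 treated samples alone). Of 11 genes of mitochondrial chaperones and their partners 9 lay above 0, with a median of 0.12. The J-domain partners of inducible HSP70, dnajb1a and dnajb1b, had log2 fold changes of 0.20 ± 0.07 and 0.32 ± 0.10, with 11.4, 14.1 and 16.1 CPM for dnajb1b in ACR-treated and 10.5, 11.3 and 12.6 CPM in untreated samples, and neither passed (adjusted p = 0.909 for both). BAG3 stood at 0.21 ± 0.08, and hsf1 at 0.03 ± 0.07. Over 25 genes known as cytosolic HSF1 targets, a list written with earlier results known, 22 values lay above 0 after ACR with a median of 0.14 and 0 calls. In akr1a1a-/- larvae 20 of these values lay above 0, with a median of 0.13 and 4 calls, all higher. That share of 16.0% stood beside 16.2% of all genes called there in either direction and 8.19% called higher. Of the inducible hsp70 genes set aside at the start, hsp70.3 rose after ACR, with 54.7 ± 20.6 CPM in ACR-treated and 21.8 ± 3.1 CPM in untreated larvae (log2 fold change 1.33, adjusted p = 0.0168 in edgeR). HSPA2 rose as well (0.86, adjusted p = 0.0187 in edgeR), whereas neither was called in akr1a1a-/- larvae. The other set-aside genes, hsp70.1 (0.99, adjusted p = 0.0637 in edgeR) and hsp70l (0.58, adjusted p = 0.909), did not pass after ACR.

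Both comparisons share the untreated akr1a1a+/+ samples, so akr1a1a-/- larvae were also set directly against ACR-treated larvae, which tests the difference between the effects. Here 15 of 108 genes differed, 7 higher and 8 lower in akr1a1a-/- larvae, or 13.9%, beside 13.8% of all genes tested (6.46% higher and 7.29% lower). On the TPM scale, where the median of all genes was -0.06, limma called 3 higher and 10 lower with 15% of all genes called. The 7 higher were CCT2, cct2, CCT8, hspa1b, DNAJC19, dnajc5ga and TCP11L1, and the 8 lower were hspb15, DNAJC5 (ENSDARG00000004836), dnajc5gb, DNAJC5B, the ER genes DNAJC1, dnajc3a and DNAJC10, and dnajb1b. Against the lane 3 ACR samples alone 7 passed, with 8.67% of all genes called. From before came hspb15, DNAJC5, dnajc5gb, TCP11L1 and CCT2. In addition HSPB8 (0.38) and hspb9 (1.04) were called, both higher. Those treated samples are also numbers 4 to 6, along which the untreated samples, all of lane 2, differed as well. Untreated hspb9 averaged 11.2 CPM in samples 1 to 3 and 6.27 CPM in samples 4 to 6. Untreated HSPB8 spanned 34.5 to 42.3 CPM in samples 1 to 3 and 30.7 to 34.98 CPM in samples 4 to 6. For these added calls, matching the lane and leaving out treated samples 1 to 3 cannot be told apart.

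In akr1a1a-/- against untreated akr1a1a+/+ larvae 2 of the 10 ER genes had a value above 0, with a median of -0.06 and 0 calls. With lane as a covariate 8 were above 0, with a median of 0.29, and 1 was called, DNAJB11, beside 6.45% of all genes. That lane term cannot be told apart from the numbers of the ACR-treated samples. Set against ACR-treated larvae, 3 of the 10 were called lower, beside 7.29% of all genes. For dnajc3a, the gene of a J-domain protein of the ER lumen, the lowest, median and highest values were 11.3, 14.0 and 17.9 CPM in akr1a1a-/- samples, 16.1, 19.96 and 28.3 CPM in ACR-treated samples and 14.9, 18.02 and 20.8 CPM in untreated akr1a1a+/+ samples (akr1a1a-/- over ACR-treated -0.55 ± 0.13, adjusted p = 0.00614). DNAJC10, which reduces disulfide bonds, had 17.4, 17.7 and 19.2 CPM in akr1a1a-/- against 17.4, 22.1 and 26.6 CPM in ACR-treated samples (-0.29 ± 0.09, adjusted p = 0.0266), and the groups of both genes overlapped. For DNAJC1 no akr1a1a-/- sample, at 28.5 to 31.9 CPM, reached the lowest ACR-treated one (-0.18 ± 0.04, adjusted p = 0.00459). In all, 9 of the 10 values were below 0, with a median of -0.28. None of the 3 passed against the lane 3 treated samples alone, where the median was -0.13.

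The vesicle gene dnajc5gb had 16.1, 18.1 and 20.9 CPM in akr1a1a-/- samples, 20.7, 23.8 and 29.4 CPM in ACR-treated samples and 17.8, 22.3 and 23.0 CPM in untreated akr1a1a+/+ samples. The groups overlapped, and it was lower in akr1a1a-/- than in ACR-treated larvae (-0.42 ± 0.08, adjusted p = 0.00166), and the difference remained with the lane 3 treated samples (-0.33, adjusted p = 0.0282). For DNAJC5 the corresponding values were -0.27 ± 0.07 (adjusted p = 0.0148) and -0.34 (adjusted p = 0.0223), and for CCT2 0.32 ± 0.07 (adjusted p = 0.00326) and 0.26 (adjusted p = 0.0457). DNAJC19, part of the mitochondrial import motor, was higher in akr1a1a-/- larvae by 0.32 ± 0.11 (adjusted p = 0.0487) and passed in 2 of 12 fits that left out a sample. Also not called in every such fit were CCT8 and DNAJC10 (8 of 12 each), DNAJC5B (6 of 12), and dnajb1b and dnajc5ga (3 of 12 each).

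Folding genes outside the prefixes were called no more often than all genes, of which 16.2% were called and 8.19% higher in akr1a1a-/- larvae. Of 36 other cytosolic co-chaperone genes tested, 3 rose in akr1a1a-/- larvae: SUGT1, a partner of HSP90 (0.23 ± 0.06, adjusted p = 0.0138), CHORDC1 (ENSDARG00000003973), another HSP90 partner (0.34 ± 0.11, adjusted p = 0.0354), and SMYD1 (ENSDARG00000091253), a muscle gene that works with HSP90 on myosin (0.31 ± 0.08, adjusted p = 0.0128). TSC1 (ENSDARG00000057918), a co-chaperone of HSP90 and part of a growth-control complex, fell (-0.21 ± 0.05, adjusted p = 0.00556), so that 11.1% of the 36 were called. Of 29 further ER folding genes only the disulfide isomerase PDIA6 rose in akr1a1a-/- larvae, a share of 3.45% (0.34 ± 0.11, adjusted p = 0.0358), and after ACR 26 of 29 values lay above 0, with a median of 0.15 and 0 calls. The mitochondrial quality control list, which holds 13 gene IDs that share the symbol HTRA2, gave 0 calls among 23 tested in either comparison. These lists, too, were written with earlier results of these data known.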

How the data were processed

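RNA-seq of pooled zebrafish larvae was analysed in 6 samples each of akr1a1a-/-, ACR-treated akr1a1a+/+ and untreated akr1a1a+/+ larvae. Per the submitters' processing notes, reads were trimmed with Trim Galore 0.6.4 and assigned with kallisto 0.4.6 on GRCz11. The deposited estimated counts per gene were made by the authors from these assignments and are not normalized, and 45.1 to 46.0% of the values of a sample were not exactly whole. The deposited TPM values were scaled by the authors to transcript length and library total. Symbols were taken from a table of gene IDs, which named 29201 of 32520 IDs, in the spelling given there.

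Estimated counts were rounded and tested with edgeR 4.0.16 (R 4.3.3) after filterByExpr and TMM scaling, by the quasi-likelihood test on all 18 samples with a mean per group (15 residual degrees of freedom), across all 23223 genes passing the filter, with Benjamini-Hochberg adjustment over all of them and a threshold of 0.05. SE was approximated from the log2 fold change and the square root of the F statistic, and 95% intervals follow from it under a normal approximation. A count of 3 corresponds to 0.147 to 0.151 CPM. CPM and group overlap were computed from the same scaling. The method was tested on simulated data.

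Same-numbered ACR-treated and untreated samples deviated together, as correlations of their deviations from the group means showed (0.249 to 0.603, all 6 above 0.1). Each of the 6 ACR-treated samples correlated best with the untreated sample of its own number, so these numbers were taken as pairs. Other pairs had a mean of -0.0887, which centring each group on its own mean largely fixes, so it is no separate support. The pairing comes from the data, since the labels name no shared clutch.

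Alternatives were DESeq2 1.42.0, limma 3.58.1 on log2(TPM + 1) or log2(TPM + 0.1), other filters and scaling, a replicate block, a lane covariate, lane subsets and leaving out each sample. Named genes were those called against untreated larvae with a mean log2 CPM of at least 1, the 3 most abundant of each class by TPM and a core list; other genes are named by what singled them out. The members and lists were chosen with earlier results of these data known.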

Additional observations from a re-analysis of the deposited data

Results flagged for a closer look

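Of 147 groups of 6 samples looked at, for 49 named genes, 4 held a sample whose gap to the nearest other sample exceeded Dixon's 95% critical share of the group's range, and chance gives about 1 in 20 such groups. DNAJC5 (ENSDARG00000004836) had 104 CPM in untreated akr1a1a+/+ replicate 3, below 116 to 119 CPM in the other untreated samples. The fall of this gene in akr1a1a-/- larvae was called in all 12 fits that left out a sample, that one included. In akr1a1a-/- replicate 4 hspb15 had 5.64 CPM, above 4.69 to 5.04 CPM in the other akr1a1a-/- samples and still below every untreated sample. The other 2 were both in untreated replicate 6, where DNAJA3, a mitochondrial J-domain gene, had 45.4 CPM, with 46.4 to 46.9 CPM in the other samples, and HSPE1, the lid of the mitochondrial chaperonin, had 28.5 CPM, with 36.2 to 39.8 CPM in the others.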

How the results depend on the processing

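For akr1a1a-/- against untreated larvae, 14 chaperone genes were called, beside 16.2% of all genes. The count was 27 (23 higher, 4 lower, 14 of the 14 kept) with a replicate block in the fit of all samples, where 20.8% of all genes were called. With the block in the fit of both groups alone it was 20, beside 15.5% of all genes, and with DESeq2's Wald test 20, beside 17.5%. A lane covariate gave 10 (4 kept), beside 6.45% of all genes, and limma on TPM 10 (8 kept), beside 15.9%. Leaving out 1 sample gave 10 to 17, beside 13.3 to 15.5% of all genes. Same-numbered akr1a1a-/- and untreated samples correlated at 0.0387 to 0.131, 1 of 6 above 0.1 and 1 of 6 closest to its own number, so these numbers were not taken as pairs. For ACR-treated against untreated larvae the count was 0 under every alternative run except 4 with the replicate block in the fit of both groups alone, and 0 to 0 when leaving out 1 sample. For akr1a1a-/- against ACR-treated larvae 15 were called, beside 13.8% of all genes, and 20 with the replicate block, beside 18.2%. A lane covariate gave 6 (4 kept), beside 8.53% of all genes, and the lane 3 treated samples alone 7 (5 kept), beside 8.67%. Leaving out 1 sample gave 9 to 16, beside 11.7 to 13.9% of all genes. None of the 14 called genes followed in each of these comparisons changed direction under these alternatives. DNAJC5B, too scarce to be among them, was lower in akr1a1a-/- than in ACR-treated larvae in the 12 fits leaving out 1 sample, with the replicate block, with the lane covariate, with limma on TPM and with the lane 3 treated samples. DNAJC5, STIP1 and hspb15 passed under all 10 alternatives in akr1a1a-/- against untreated larvae. Apart from the counts above, the block changed no call of ACR-treated against untreated larvae. The scarcest genes called rested on few counts: DNAJC5B had 11 to 31 a sample in akr1a1a-/- and 27 to 41 in ACR-treated larvae.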

Other observations

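HSP90AA1, HSP90AB1, HSF2 and CCT2 were lower in samples 1 and 2 than in samples 3 to 6 in all 3 groups, which held for 4 of 108 chaperone genes (3.70%) and for 1.00% of all genes tested. The opposite order was seen in 0 chaperone genes and in 1.55% of all genes. The pattern was picked after the values had been seen, and what samples 1 and 2 share was not tested.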
